A study of Mus musculus with 8 samples.

Results

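The arterial endothelial markers described here were 7 genes, *Bmx*, *Gkn3*, *Gja4*, *Gja5*, *Mgp*, *Fbln5* and *Stmn2*, chosen by name as genes whose transcripts are known from arteries of the brain. The choice was made with earlier results of these data known. The genes were found by symbol among the 49315 genes counted, and all 7 were among the 16887 genes tested. Brain endothelial cells (ECs) of 4 mutant and 4 wild-type pups were compared at postnatal day 9, with 1 RNA sequencing library per pup. Mutant pups were R26 GT-Map2k1-GFP/+; Tg-Cdh5CreER+/- mice. They carried a *Map2k1* (p.K57N) cDNA behind a stop cassette at the *Rosa* locus and a tamoxifen-inducible Cre recombinase driven by the EC promoter of *Cdh5*. Tamoxifen was given to the pups of both groups at day 1. The controls are labelled wild type, and the sources do not state for each control whether it carried Cre or the unrecombined allele alone. For each litter, as many wild-type pups were taken as there were mutant pups. ECs were bound to beads coated with an antibody to CD31 and were not separated by vessel type. Recombination reached a minority of the mutant ECs, so each mutant library mixes recombined and unrecombined cells.

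Arteries, capillaries and veins of the brain are lined by ECs with different transcripts. The arterial state is set up by Notch signalling and by SOX and ETS transcription factors, and arterial ECs are joined by gap junctions and lie on a matrix rich in elastic fibres. In an arteriovenous malformation arteries drain into veins without a normal capillary bed, which is why markers of the arterial side are of interest in this model. The 7 genes cover a signalling kinase (*Bmx*), a pair of gap junction channels (*Gja4* and *Gja5*), 3 secreted or matrix proteins (*Gkn3*, *Mgp* and *Fbln5*) and a protein that binds tubulin (*Stmn2*).

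The libraries held between 24833373 and 34196955 counts on genes. General EC markers were abundant in both groups, and 10 of them summed to between 315276 and 376425 normalized counts in mutant and between 286206 and 351949 in wild-type libraries. Means are given ± SD over the 4 libraries of each group (n = 4). A normalized count is a count scaled by edgeR's TMM factors to the mean library size. Each of the 7 markers was detected in every library, the lowest value being 124 normalized counts. Wild type replicate 3 was the lowest wild-type library for 6 of the 7 markers, and mutant replicate 1 the lowest mutant library for 5 of the 7, so results that rest on these libraries are also given without them. Fewer arterial cells in a library and less RNA per arterial cell cannot be told apart in these bulk samples.

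All 7 markers had a lower mean in mutant ECs, and 4 of them, *Gkn3*, *Fbln5*, *Stmn2* and *Bmx*, were differentially expressed. A gene was called differentially expressed when its adjusted p was under 0.05 and its log2 fold change was over 1 or under -1. Over all genes tested, 14.0% were called in either direction, 8.05% were called lower, and 51.8% had a log2 fold change under 0. The median log2 fold change was -1.03 over the 7 markers and -0.02 over all genes tested. With *Gja4*, 5 of the 7 had an adjusted p under 0.05 in the lower direction, which 22.9% of all genes tested had (44.4% in either direction). For 4 of the 7 every mutant library was below every wild-type library, against 21.9% of all genes (42.5% without overlap in either direction). Because the markers were chosen with earlier results known, these shares are a description and not a test of the list. Leaving out mutant replicate 1 left 2 called markers, *Gkn3* and *Fbln5*. Without both mutant replicate 1 and wild type replicate 3, 3 were called, *Bmx*, *Gkn3* and *Fbln5*.

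**Figure D1:**
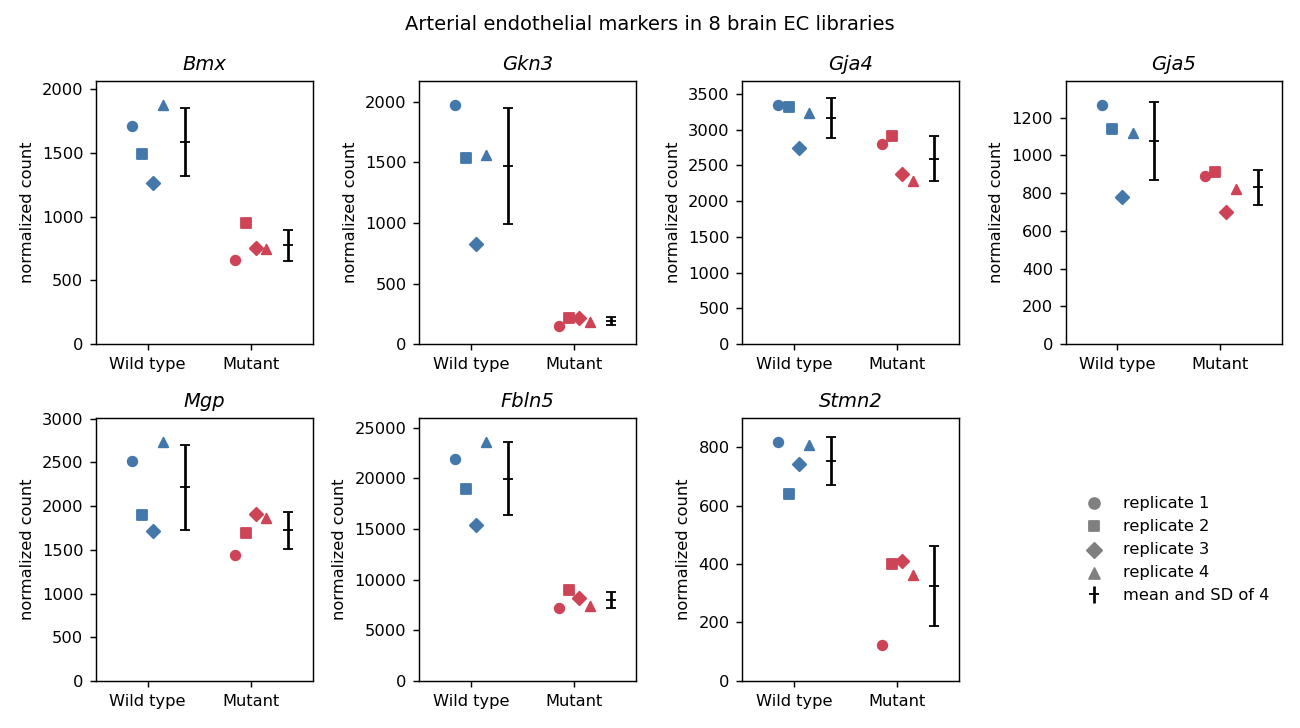
Normalized counts of the 7 arterial markers in each of the 4 wild-type and 4 mutant libraries, on linear axes that start at 0, with the marker shape giving the replicate number and the bar the mean and SD of 4 libraries. The groups are apart for *Bmx*, *Gkn3*, *Fbln5* and *Stmn2* and overlap for *Gja4*, *Gja5* and *Mgp*.

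The bases before the start of the members are shown because the groups of called and uncalled markers could be compared for binding motifs of factors of the arterial state. RefSeq promoters (GRCm38.p6) were found for 5 of the 7 genes, with 6 start sites, and *Mgp* and *Stmn2* are named only. The 250 bases before the start were searched on both strands for CCGGAA (ETS), TGGGAA (RBPJ, the DNA-binding partner of Notch), ACAAT (SOX), TGANTCA (AP-1), CACCC (KLF) and TGTTTAC (FOX). Capitals mark the matches in the 4 sequences below, which are those of 3 called markers, the first start of *Fbln5* among them, and of *Gja4*, each on the minus strand and written 5′ to 3′. They lie at chrX:164258194-164258443 (*Bmx*), chr6:87388936-87389185 (*Gkn3*), chr12:101819120-101819369 (*Fbln5*) and chr4:127314040-127314289 (*Gja4*).
Bmx: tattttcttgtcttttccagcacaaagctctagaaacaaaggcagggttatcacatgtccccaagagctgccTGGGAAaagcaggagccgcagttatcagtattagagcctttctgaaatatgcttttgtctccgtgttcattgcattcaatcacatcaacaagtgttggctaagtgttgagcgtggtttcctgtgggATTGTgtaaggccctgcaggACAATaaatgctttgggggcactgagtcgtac
Gkn3: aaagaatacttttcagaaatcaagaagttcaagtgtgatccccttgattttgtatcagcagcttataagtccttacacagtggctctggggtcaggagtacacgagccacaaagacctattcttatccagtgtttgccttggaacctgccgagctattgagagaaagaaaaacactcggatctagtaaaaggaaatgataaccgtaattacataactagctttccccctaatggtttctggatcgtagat
Fbln5: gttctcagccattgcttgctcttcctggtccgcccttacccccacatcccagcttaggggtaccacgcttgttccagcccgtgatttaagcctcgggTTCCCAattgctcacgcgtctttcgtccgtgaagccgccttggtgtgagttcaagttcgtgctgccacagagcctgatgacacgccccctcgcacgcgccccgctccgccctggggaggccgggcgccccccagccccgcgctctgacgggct
Gja4: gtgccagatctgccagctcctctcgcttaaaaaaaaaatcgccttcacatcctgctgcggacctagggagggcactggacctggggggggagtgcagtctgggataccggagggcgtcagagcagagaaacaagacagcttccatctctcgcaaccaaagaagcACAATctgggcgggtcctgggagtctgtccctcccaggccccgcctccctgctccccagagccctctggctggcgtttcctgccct

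The RBPJ letters were found once in *Bmx*, 178 bases before the start, and once in *Fbln5*, 153 bases before it, while 21.6% of the 32851 RefSeq promoters of the same length hold them. The SOX letters were found at 52 and 32 bases before the start of *Bmx* and at 86 bases before that of *Gja4*, and 27.7% of all promoters hold them. *Gkn3*, the marker with the lowest log2 fold change, had no match to any of the 6 motifs. The KLF letters were found 4 times in *Gja5* and once at the other start of *Fbln5*, and 52.0% of all promoters hold them. These windows lie at chr3:97032152-97032401 (*Gja5*) and chr12:101818485-101818734 (*Fbln5*), inside the spans of the genes given below and not before them. The ETS, AP-1 and FOX letters, held by 12.03%, 6.75% and 3.17% of all promoters, were in none of the 6 windows. These matches describe letters only.

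*Bmx* encodes a non-receptor tyrosine kinase of the Tec family that is used as a marker of arterial endothelium and endocardium. It (ENSMUSG00000031377) lies on the minus strand of chromosome X of GRCm38 from 164192842 to 164258193. The mutant libraries 1 to 4 had 663, 947, 751 and 743 normalized counts, and the wild-type libraries 1708, 1490, 1267 and 1876. The highest mutant library stayed below the lowest wild-type library. The means were 776 ± 120 in mutant and 1585 ± 264 in wild-type ECs, so that mutant ECs held 49.0% of the wild-type level. The log2 fold change was -1.03 (standard error 0.14, 95% interval -1.34 to -0.72, adjusted p = 2.37e-04, quasi-likelihood test of edgeR, adjusted by Benjamini-Hochberg over all genes tested). *Bmx* lay close to the fold limit. Its log2 fold change was -0.94 without mutant replicate 1, -0.98 without mutant replicate 4, -0.97 without wild type replicate 1 and -0.94 without wild type replicate 4, and in each case its adjusted p remained under 0.05.

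Relatives of *Bmx* in the Tec family were also measured. *Tec* itself had 3221 ± 752 normalized counts in mutant and 1328 ± 209 in wild-type ECs and was called higher, with a log2 fold change of 1.28 (adjusted p = 1.89e-04, same edgeR test). *Txk*, a kinase known from lymphocytes, was called higher (log2 fold change 1.07, adjusted p = 0.0367) at mean levels of 44.0 ± 16.8 normalized counts in mutant and 20.9 ± 7.82 in wild-type ECs, and its groups overlapped. *Btk*, known from B cells and myeloid cells, had a log2 fold change of -0.27 and an adjusted p of 0.657. Over all genes tested, 5.90% were called higher.

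*Gkn3* encodes a secreted gastrokine, a small protein family named from the stomach, and its transcript marks arterial ECs of the mouse brain. It (ENSMUSG00000030048) lies on the minus strand of chromosome 6 from 87383256 to 87388935. The mutant libraries 1 to 4 had 151, 215, 219 and 185 normalized counts, and the wild-type libraries 1974, 1533, 823 and 1558. Wild type replicate 3 was well below the other wild-type libraries, yet still far above every mutant library. *Gkn3* averaged 193 ± 31.7 in mutant and 1472 ± 477 in wild-type ECs, a 7.65-fold difference, and mutant ECs held 13.1% of the wild-type level. Its log2 fold change of -2.93 (standard error 0.25, 95% interval -3.48 to -2.39, adjusted p = 1.52e-05, same edgeR test) was the lowest of the 7. It was -3.13 without wild type replicate 3, and it was the single marker that passed a test against a log2 fold change of 1.

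The gastrokine genes are neighbours on chromosome 6. *Gkn1*, from 87345650 to 87350942 and 32313 bases from *Gkn3*, changed in the opposite direction. It had 263, 124, 95 and 350 counts in mutant libraries 1 to 4 and no more than 1 count in each wild-type library, so that its mutant level exceeded the wild-type level at least 77.6-fold against a floor of 3 counts per library. *Gkn2*, which lies between them from 87373357 to 87379497, had at most 1 count in any library and was not tested.

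*Fbln5* encodes a fibulin that binds tropoelastin and helps to assemble elastic fibres. It (ENSMUSG00000021186) lies on the minus strand of chromosome 12 from 101746565 to 101819055. The mutant libraries 1 to 4 had 7244, 8954, 8230 and 7396 normalized counts, and the wild-type libraries 21931, 18930, 15392 and 23630. The groups were clearly apart, and the mutant libraries were close to each other. *Fbln5* averaged 7956 ± 794 in mutant and 19971 ± 3618 in wild-type ECs, a 2.51-fold difference. Its log2 fold change was -1.33 (standard error 0.13, 95% interval -1.62 to -1.03, adjusted p = 4.04e-05, same edgeR test), and it stayed between -1.43 and -1.24 with each library left out in turn.

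*Fbln5* was 1 of 20 genes listed here for fibulins and elastic fibres, all of which were tested. Of the other 19, 7 were called lower and 4 higher, against 8.05% and 5.90% of all genes tested. *Eln*, the elastin gene, had 80519 ± 12368 normalized counts in mutant and 187325 ± 40373 in wild-type ECs (log2 fold change -1.22, adjusted p = 2.45e-04). The related fibulin *Fbln2* fell from 16993 ± 2858 to 4839 ± 861, with a log2 fold change of -1.81 (adjusted p = 1.60e-05). *Hmcn1*, a large fibulin-family protein of basement membranes, had a log2 fold change of -1.48 (adjusted p = 1.39e-05), and *Ltbp4*, which binds latent TGF-beta to elastic fibres, one of -1.11 (adjusted p = 6.21e-05). Higher in mutant ECs were the fibrillin gene *Fbn2* (log2 fold change 3.32, adjusted p = 1.60e-05), the lysyl oxidase relative *Loxl2* (2.19, adjusted p = 2.12e-07) and *Ltbp2* (1.86, adjusted p = 4.67e-05). The list therefore held changes in both directions, and the median over the other 19 was a log2 fold change of -0.58.

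Elastic fibre genes and *Mgp* are also transcribed in smooth muscle cells and fibroblasts. Of 8 smooth muscle markers 0 were called in either direction by edgeR or DESeq2 (1 had an adjusted p under 0.05, *Tagln*, which was higher in mutant ECs, and 2 had an unadjusted p under 0.05, both higher). The list summed to between 6529.7 and 11903 normalized counts in mutant and between 6194 and 11898 in wild-type libraries, its median log2 fold change was 0.03, and no marker was at 0 in every library. Of 8 fibroblast markers 1 was called lower, *Pdgfra*, which is also transcribed in oligodendrocyte precursors. Their median log2 fold change was 0.39, their sum ranged from 31560.2 to 40895 in mutant and from 27804 to 36779 in wild-type libraries, and none was at 0 in every library. Among all genes tested, 8.05% were called lower. The part of smooth muscle cells and fibroblasts in the values of *Mgp* and the elastic fibre genes was not tested.

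*Stmn2* encodes a stathmin that binds tubulin dimers. It is listed as an arterial marker and is also one of the abundant transcripts of young neurons. The gene (ENSMUSG00000027500) lies on the plus strand of chromosome 3 from 8509360 to 8561606. The mutant libraries 1 to 4 had 124, 401, 411 and 363 normalized counts, and the wild-type libraries 819, 638, 743 and 807. Mutant replicate 1 was far below the other mutant libraries, and all mutant libraries were below all wild-type libraries. The means were 325 ± 135 in mutant and 752 ± 82.7 in wild-type ECs. The log2 fold change was -1.20 (standard error 0.29, 95% interval -1.85 to -0.56, adjusted p = 0.00687, same edgeR test). It was -0.92, under the fold limit, without mutant replicate 1 (adjusted p = 3.32e-04).

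Of 10 neuron markers 6 were called lower in mutant ECs and 1, *Nefl*, higher, against 8.05% and 5.90% of all genes tested. The groups overlapped in their sum, as the list came to between 699.9 and 1235 normalized counts in mutant and between 747 and 3031 in wild-type libraries, with no marker at 0 in all libraries. *Dcx*, a microtubule protein of migrating neurons, had 204, 51.7, 435 and 63.3 normalized counts in wild-type libraries 1 to 4, and its log2 fold change was -3.36 (adjusted p = 0.00462). *Tubb3*, a neuronal tubulin, had 213, 94.0, 321 and 118 in the same libraries. The highest wild-type library exceeded the lowest by 1.28-fold for *Stmn2*, by 3.41-fold for *Tubb3* and by 8.41-fold for *Dcx*. Wild type replicate 3 was the highest wild-type library for all 10 neuron markers and the third highest for *Stmn2*. The part of neuronal RNA in the *Stmn2* difference was not tested. Among the other stathmins, *Stmn3* (log2 fold change -2.30, adjusted p = 0.00753) and *Stmn4* (-2.27, adjusted p = 0.00429) were called lower at means of at most 103 normalized counts. *Stmn1*, the member transcribed in dividing cells, had a log2 fold change of -0.33 (adjusted p = 0.0282).

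*Gja4* and *Gja5* encode connexins that form gap junction channels between arterial ECs. *Gja4* (ENSMUSG00000050234) lies on the minus strand of chromosome 4 from 127311421 to 127314039. It had 2801, 2918, 2377 and 2288 normalized counts in mutant libraries 1 to 4, and 3346, 3314, 2747 and 3236 in wild-type libraries 1 to 4. Mutant replicates 1 and 2 were above wild type replicate 3, so the groups overlapped. The means were 2596 ± 310 and 3161 ± 280, and the log2 fold change was -0.28 (standard error 0.10, 95% interval -0.50 to -0.07, adjusted p = 0.0363, same edgeR test). The adjusted p ranged from 0.0208 to 0.113 with each library left out in turn and was 0.0753 with DESeq2, so this difference did not hold against the choice of library or tool. It was 0.00571 with the label prefix as a block.

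*Gja5* (ENSMUSG00000057123) lies on the plus strand of chromosome 3 from 96904693 to 97077416. It had 889, 911, 703 and 823 normalized counts in mutant libraries 1 to 4, and 1267, 1138, 780 and 1121 in wild-type libraries 1 to 4. All mutant libraries except mutant replicate 3 were above wild type replicate 3 and below the other wild-type libraries. The log2 fold change was -0.37 (standard error 0.14, 95% interval -0.69 to -0.05, adjusted p = 0.0567, same edgeR test), which does not pass. With the label prefix as a block it was -0.36 and passed (adjusted p = 0.00428), as it did with the replicate number as a block (-0.36, adjusted p = 0.00841). These settings are not independent, since replicates 3 and 4 form the same blocks in both. Without wild type replicate 3 the log2 fold change of *Gja5* was -0.50 (adjusted p = 0.00526). The exons of *Gja5* share 165 of 5746 bases with *Gpr89* on the other strand, and reads there could belong to either gene, since the use of strand in the counting is not given in the sources used here. The exons of the other 6 markers overlap no other gene of the count files.

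The intervals of both arterial connexins lay above -1, so a change as large as the fold limit was outside them, although they are not adjusted for the number of genes tested. *Gja1*, the most abundant connexin of these libraries and also a transcript of astrocytes, had 19462 ± 2148 normalized counts in mutant and 11160 ± 933 in wild-type ECs, and its difference of 0.80 on the log2 scale (adjusted p = 1.32e-04, same edgeR test) was under the fold limit. *Gjc1*, a connexin of smooth muscle and endothelium, had a log2 fold change of -0.16 (adjusted p = 0.220). Of the 23 connexin and pannexin genes, 11 were tested. Among all genes tested, 8.05% were called lower and 5.90% higher. *Gjc3* (log2 fold change -2.47, adjusted p = 0.00148) and *Panx2* (-1.92, adjusted p = 0.00462) were called lower at means of at most 41.6 normalized counts, and 0 were called higher by edgeR or DESeq2 (2 had an unadjusted p under 0.05 in that direction). These 2, *Gja1* and *Panx1* (log2 fold change 0.37, adjusted p = 0.0274, same edgeR test), also had an adjusted p under 0.05.

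*Mgp* encodes matrix Gla protein, an inhibitor of vascular calcification that binds bone morphogenetic proteins. It (ENSMUSG00000030218) lies on the minus strand of chromosome 6 from 136872435 to 136875823. It had 1441, 1690, 1910 and 1862 normalized counts in mutant libraries 1 to 4, and 2514, 1893, 1714 and 2738 in wild-type libraries 1 to 4. Wild type replicates 2 and 3 lay within the range of the mutant libraries, while wild type replicates 1 and 4 were above all of them. The means were 1726 ± 212 and 2215 ± 489, and the log2 fold change was -0.36 (standard error 0.15, 95% interval -0.69 to -0.03, adjusted p = 0.0761, same edgeR test), which does not pass. Without wild type replicate 3 it was -0.46 (adjusted p = 0.0221).

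Of 8 other genes listed for the vitamin K dependent modification of Mgp and its partners, 1 was called, against 14.0% of all genes in either direction. This was *Gas6*, a vitamin K dependent ligand of receptor kinases. It had 1642 ± 385 normalized counts in mutant and 3952 ± 279 in wild-type ECs (log2 fold change -1.27, adjusted p = 1.31e-04). *Vkorc1l1* was higher, with a log2 fold change of 0.46 (adjusted p = 0.00333, same edgeR test) that was under the fold limit. *Ggcx*, the carboxylase of this pathway, had a log2 fold change of -0.13 (adjusted p = 0.337). The Mgp partner *Bmp2* had one of -0.04 (adjusted p = 0.859), and *Bmp4* one of 0.22 (adjusted p = 0.200).

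Levels of the 7 genes can be set side by side only per exon length, here as normalized counts per kilobase of the exons counted. In wild-type ECs the order was *Fbln5* at 3426 ± 621, *Gja4* at 1876 ± 166, *Mgp* at 1866 ± 412, *Gkn3* at 1719 ± 558, *Bmx* at 513 ± 85.5, *Gja5* at 187 ± 36.3 and *Stmn2* at 134 ± 14.8. *Gja4*, *Mgp* and *Gkn3* did not differ from each other beyond their spread, and the ranges of *Gja5* and *Stmn2* overlapped. In mutant ECs *Gja4* came to 1541 ± 184, *Mgp* to 1454 ± 179 and *Fbln5* to 1365 ± 136, whose ranges overlapped. *Bmx* at 251 ± 38.9 and *Gkn3* at 225 ± 37.0 followed and overlapped too, with *Gja5* at 145 ± 16.3 and *Stmn2* at 58.0 ± 24.2 below them. The exon length covers all annotated transcripts, so it is too long for genes whose longer transcripts are rare.

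Another 30 genes known from arterial endothelium were listed beside the 7 markers, and all 30 were tested. Of these, 8 were called lower, and 0 were called higher by edgeR or DESeq2. With no limit on the fold change, 18 were lower and 3 higher at an adjusted p under 0.05, and 9 did not pass. The shares over all genes tested were 8.05% called lower and 5.90% called higher. At an adjusted p under 0.05 alone they were 22.9% lower and 44.4% in either direction. The median log2 fold change of the 30 was -0.75. The 8 called lower comprised the chemokine *Cxcl12* (log2 fold change -2.64, adjusted p = 2.52e-04), the phosphatase *Alpl* (-1.75, adjusted p = 1.81e-05), the growth factors *Tgfb2* (-1.54, adjusted p = 2.03e-05) and *Vegfc* (-1.41, adjusted p = 3.86e-05), the transcription factor *Sox17* (-1.20, adjusted p = 8.82e-05), and the matrix genes *Fbln2*, *Eln* and *Ltbp4* given above.

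*Sox17* is required for the arterial state, and fell from 9032 ± 1101 normalized counts to 3941 ± 701. *Cxcl12* fell from 17795 ± 3350 to 2859 ± 1531, while the 3 genes that were higher included its receptor *Cxcr4*, with a log2 fold change of 0.93 (adjusted p = 9.65e-04). The others were *Tm4sf1* (0.90, adjusted p = 1.64e-04) and *Crip1* (0.45, adjusted p = 0.00305). Of 7 genes of the Notch pathway in the list, 4 had an adjusted p under 0.05, all of them lower in mutant ECs and none beyond the fold limit. These were the targets *Hey1* (log2 fold change -0.88, adjusted p = 6.86e-04) and *Hey2* (-0.74, adjusted p = 0.0166) and the ligands *Jag2* (-0.96, adjusted p = 3.10e-04) and *Dll4* (-0.33, adjusted p = 0.0445). The receptors *Notch1* (-0.22, adjusted p = 0.0556) and *Notch4* (0.22, adjusted p = 0.152) and the ligand *Jag1* (0.22, adjusted p = 0.159) did not pass. *Efnb2*, the ephrin ligand that marks arteries, had 8567 ± 1068 normalized counts in mutant and 8144 ± 611 in wild-type ECs, with a log2 fold change of 0.07 (adjusted p = 0.567).

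**Figure D2:**
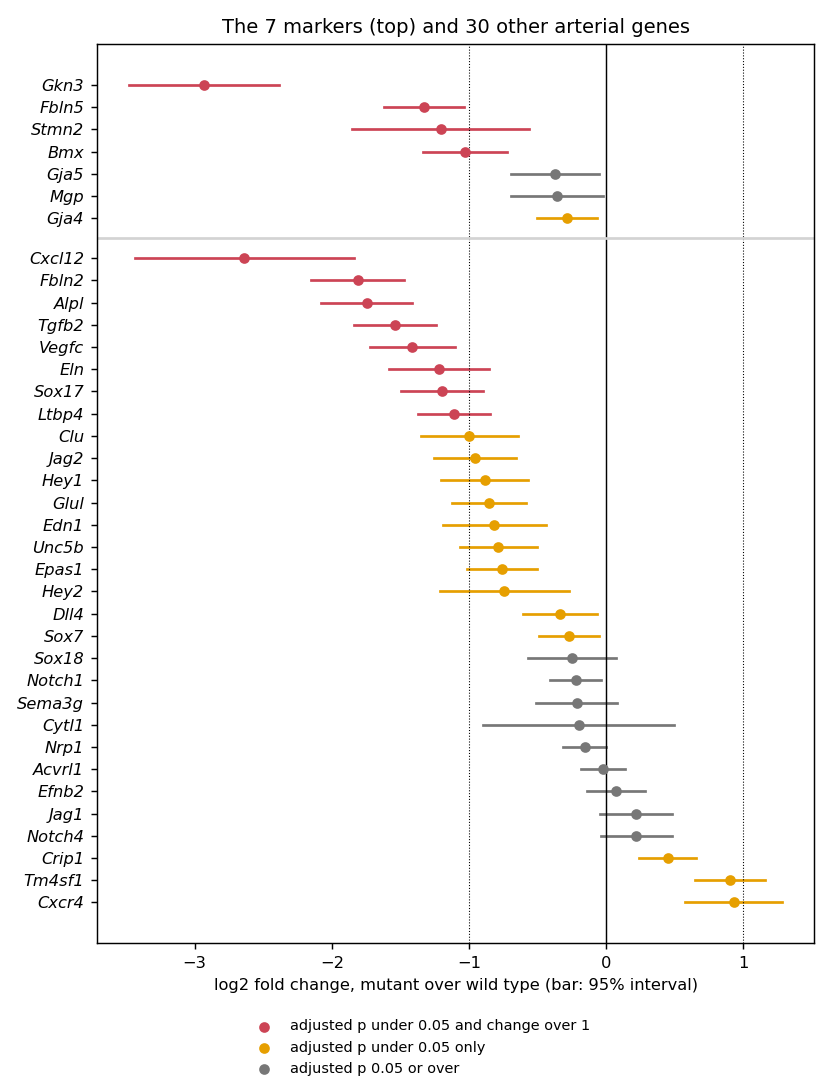
Log2 fold change of mutant over wild-type ECs for the 7 markers (above the grey line) and 30 other arterial genes, with 95% intervals from edgeR's fit that are not adjusted for the number of genes and dotted lines at -1 and 1. *Gkn3* (-2.93) and *Cxcl12* (-2.64) lie farthest to the left, and *Efnb2* (0.07) and *Acvrl1* (-0.02) lie at 0.

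Markers of the other vessel segments and of other cells moved in several directions. Of 10 capillary markers 8 were called lower, with a median log2 fold change of -1.88. The other capillary markers were *Slc2a1* (-0.14, adjusted p = 0.329, same edgeR test) and *Itih5*, which was higher in mutant ECs (0.83, adjusted p = 5.72e-04). Of 10 venous markers 4 were called higher and 1 lower, with a median of 0.38. The shares over all genes tested were 8.05% called lower and 5.90% called higher. *Vwf*, a gene of veins and large vessels, had a log2 fold change of 1.15 (adjusted p = 7.42e-05), and *Slc38a5*, an amino acid transporter listed as venous, one of -2.25 (adjusted p = 3.97e-05). The 10 general EC markers had a median of 0.12, with 1 called higher, *Cdh5*, whose promoter also drives the Cre transgene. The part of the transgene in this difference was not tested. At an adjusted p under 0.05 alone, 3 were higher, *Cdh5*, *Pecam1* (log2 fold change 0.53) and *Emcn* (0.82). Another 3 were lower, *Tek* (-0.44), *Kdr* (-0.59) and *Cldn5* (-0.47). Of all genes tested, 44.4% had such an adjusted p in either direction. Of 7 oligodendrocyte markers tested 6 were called lower (median -2.45, sum 808 to 1701 normalized counts in mutant and 2678 to 7752 in wild-type libraries), and all 6 red blood cell markers were called lower (median -1.71, sum 2648 to 8529 and 15883 to 27551). Of 8 pericyte markers 1 was called higher, *Abcc9* (median 0.07, sum 24094 to 38789 and 21011 to 39357). Among 8 astrocyte and 8 microglia or macrophage markers 0 were called by edgeR or DESeq2. At an unadjusted p under 0.05, 1 astrocyte marker was lower and 1 higher, and 0 microglia or macrophage markers were either. The astrocyte markers were *Aldh1l1* (log2 fold change -0.96, adjusted p = 0.0146, same edgeR test) and *Gja1*, and they also had an adjusted p under 0.05. The astrocyte list, whose sum is mostly *Gja1*, had a median of -0.49 and a sum of 18571 to 22233 in mutant and 11056 to 13135 in wild-type libraries. The microglia and macrophage list had a median of 0.08 and sums of 3188 to 11691 and 3479.9 to 13506. The part of these other cells in the arterial values was not tested.

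**Figure D3:**
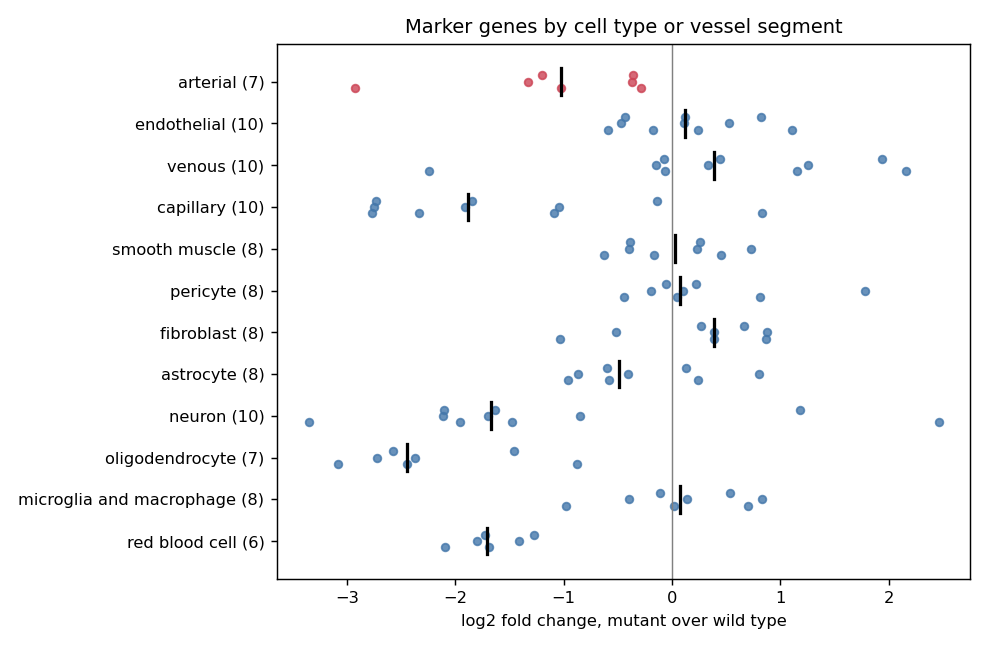
Log2 fold change of mutant over wild-type ECs for each tested gene of 12 marker lists, with 1 point per gene, the number of genes in brackets and a black bar at the median. The arterial list (top, median -1.03) lies between the capillary list (-1.88) and the venous list (0.38). The oligodendrocyte (-2.45), red blood cell (-1.71) and neuron (-1.67) lists also lie below the arterial list.

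The library labels carry 3 prefixes, each with equal numbers of libraries of both groups. The groups were matched within litters, and the layout of the prefixes is one that litters would give, but the sources do not say what a prefix stands for. One prefix holds replicates 1 and 2 of each group, and each of the others 1 replicate of each group. Within prefixes the mutant mean log2 CPM (counts scaled to a fixed library size) was below the wild-type mean in 20 of 21 cases, the exception being *Mgp* in the prefix of replicate 3, with a difference of 0.16. In the prefix of replicates 1 and 2, the prefix of replicate 3 and the prefix of replicate 4, the difference was -3.26, -1.90 and -3.06 for *Gkn3*. It was -1.34, -0.90 and -1.68 for *Fbln5*, -1.68, -0.85 and -1.15 for *Stmn2* and -1.01, -0.75 and -1.33 for *Bmx*. A prefix with 1 library per group gives no test of its own. The size of the difference was smallest in the prefix of replicate 3 for each of the 7 markers, in which wild type replicate 3 stands.

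**Figure D4:**
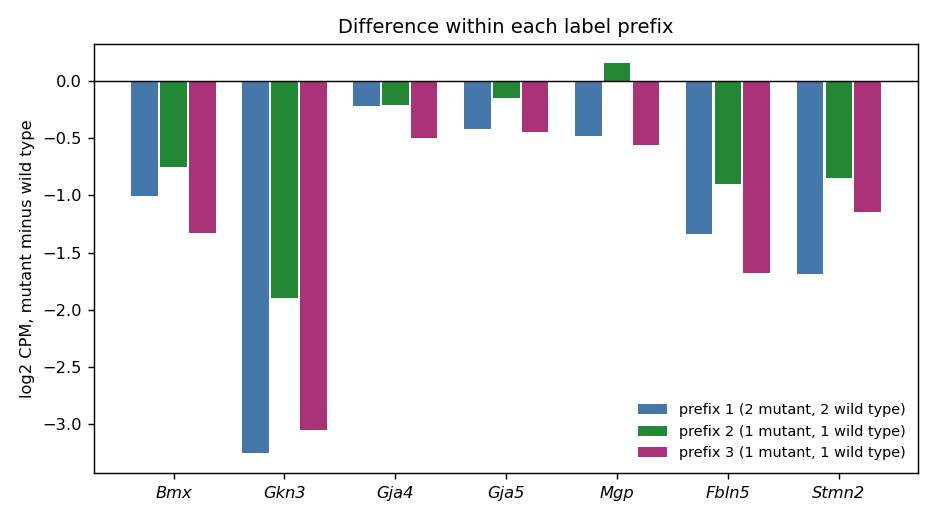
Difference of log2 CPM, mutant minus wild type, for each marker within each label prefix, where prefix 1 holds replicates 1 and 2 of both groups and prefixes 2 and 3 hold replicates 3 and 4. The bars of *Gkn3* reach from -1.90 to -3.26, those of *Gja4* from -0.21 to -0.50, and that of *Mgp* in prefix 2 lies above 0.

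With the difference between the groups removed, most pairs of markers varied in the same direction among pups. Pearson's r of log2 CPM centred within each group, over 8 libraries that share their depth and normalization between genes, was above 0 for 19 of 21 pairs of markers, with a median of 0.58. It was 0.94 for *Bmx* and *Fbln5*, 0.82 for *Gja4* and *Gja5* and -0.32 for *Gja4* and *Stmn2*. The same share and median are not given for pairs of other genes. Wild type replicate 3 was the lowest wild-type library for 6 of the markers, and mutant replicate 1 the lowest mutant library for 5. How far these libraries set the r values was not tested. By the same measure, the most like of 11399 genes with at least 100 normalized counts on average was *Reck* for *Bmx* (r = 0.97), *Ptprm* for *Gja5* (r = 0.99), *Il17rd* for *Gja4* (r = 0.99), *Nrcam* for *Stmn2* (r = 0.98), *Mrpl58* for *Gkn3* (r = 0.98), *Leo1* for *Mgp* (r = 0.98) and *Zfp788* for *Fbln5* (r = 0.98). *Reck* and *Nrcam* were themselves called lower in mutant ECs, with log2 fold changes of -1.02 and -1.88, and the other 5 were not called. Each is the highest of many values over few libraries and is given as a description.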

How the data were processed

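Poly(A) RNA of CD31-selected brain ECs was sequenced from 4 mutant and 4 wild-type pups, grouped by the titles of the samples. The authors trimmed the reads with Trimmomatic and mapped them to GRCm38 with STAR, and deposited raw counts per gene for each library. The counting program, the annotation release and the use of strand are not given in the sources used here. The authors also deposited a signal table of counts divided by DESeq2 size factors, which gave back the same whole reads and was used as a check only. Counting cannot separate reads of overlapping genes without strand.

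From the raw counts, genes were filtered with filterByExpr (minimum count 10), scaled by TMM and tested with the quasi-likelihood test of edgeR 4.0.16 in R 4.3.3, adjusted over the 16887 genes tested. Genes were called at an adjusted p under 0.05 with a log2 fold change beyond 1 in either direction. Log2 CPM used a prior count of 2. Symbols came from GENCODE and matched 48970 of 49315 identifiers. DESeq2 1.42.0, other scalings, filters and blocks, and each library left out were alternatives. P-values measure the spread between pups, and 4 libraries per group limit their precision.

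The 7 markers and the gene lists were chosen with earlier results of these data known. Named were all 7 markers, up to 8 called genes of each list by smallest p, tested relatives of a marker, and the most like gene of each marker. *Efnb2*, *Cxcr4*, *Tm4sf1*, *Crip1*, the Notch pathway genes, *Panx1*, *Ggcx*, *Vkorc1l1*, *Bmp2*, *Bmp4* and the single genes of the cell type lists were named after their values were seen. One gene of the lists is not reported here.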

Additional observations from a re-analysis of the deposited data

Results flagged for a closer look

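In groups of 4 libraries, a value was singled out where the gap between an extreme library and its nearest neighbour, divided by the range of the group, exceeded Dixon's 95% critical value. Chance alone singles out about 1 in 20 groups, and 5 of 62 groups met the limit, with 3.1 expected. *Stmn2* in mutant replicate 1 had a ratio of 0.832, at 124 normalized counts beside 363 to 411 in the other mutant libraries. *Cxcl12* in wild type replicate 3 had a ratio of 0.881, and *Ltbp2* in the same library one of 0.877. *Gjc1* in wild type replicate 2 had a ratio of 0.869. *Gkn1* in wild type replicate 2 had a ratio of 1, which rests on a single count where the other wild-type libraries had 0.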

How the results depend on the processing

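The log2 fold change of each of the 7 markers stayed below 0 under every alternative run that held it. The median over all genes tested, -0.02, was 0.02 with DESeq2, 0.00621 with no filter and 0.00255 without mutant replicate 1. With a mean of at least 100 counts required, 611 genes were called lower and 590 higher, in place of 1360 and 996. With glmTreat, which tests against a log2 fold change of 1, the counts were 309 and 427, so that more genes were called higher than lower. The counts ranged from 1178 to 1604 and from 934 to 1152 with each library left out. Of the 7 markers, 4 were called, 1 with glmTreat (*Gkn3*), 3 without genes on X, Y and MT (*Bmx* was not in that fit), 3 without mutant replicate 1 and wild type replicate 3 together (chosen after seeing the data), and 2 to 4 with each library left out. Of the other arterial genes, 8 were called lower, 5 with glmTreat and 8 to 10 with each library left out, and 0 to 1 were called higher, the 1 without mutant replicate 2 or wild type replicate 4. With glmTreat the log2 fold changes were -1.03 for *Bmx* (adjusted p = 1), -1.33 for *Fbln5* (adjusted p = 0.0727), -1.20 for *Stmn2* (adjusted p = 0.866) and -0.28 for *Gja4* (adjusted p = 1). *Gja4* also missed the threshold with DESeq2 (-0.26, adjusted p = 0.0753), RLE scaling (-0.26, adjusted p = 0.0563) and no filter (-0.28, adjusted p = 0.0550), and ranged from -0.34 to -0.20 with each library left out. *Gja5* passed with upper quartile scaling (-0.43, adjusted p = 0.0233), no filter (-0.36, adjusted p = 0.0444), a mean of at least 100 counts (-0.39, adjusted p = 0.0367), the label prefix as a block (-0.36, adjusted p = 0.00428) and without mutant replicate 1 and wild type replicate 3 (-0.53, adjusted p = 0.00648), and ranged from -0.50 to -0.26 with each library left out. *Mgp* passed with upper quartile scaling (-0.42, adjusted p = 0.0459), no filter (-0.35, adjusted p = 0.0440) and without those libraries together (-0.39, adjusted p = 0.0463), and ranged from -0.46 to -0.24. With each library left out, the ranges were -1.14 to -0.94 for *Bmx*, -3.13 to -2.74 for *Gkn3*, -1.43 to -1.24 for *Fbln5* and -1.33 to -0.92 for *Stmn2*. Apart from glmTreat and the left-out libraries, whose construction sets a stricter null or fewer samples, the cause of these changes was not tested.

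Pups were matched within litters, but the sources do not state which libraries share a litter. The main fit used no block, so any difference between litters stayed in its spread. Same-numbered libraries of the groups had r = 0.20, 0.21, 0.29 and 0.024, and the numbers were not taken as pairs. Each pair of a mutant and a wild-type library with the same prefix had an r above 0, from 0.024 to 0.29. Pairs with different prefixes ranged from -0.36 (mutant replicate 1 and wild type replicate 3) to 0.38 (mutant replicate 4 and wild type replicate 3). With the replicate number as a block, 2431 genes were called, the same 4 markers among them, and *Gja5* had a log2 fold change of -0.36 (adjusted p = 0.00841).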
